A study of Orbilia oligospora with 9 samples.

Results

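The dynamin superfamily genes described here are 7 loci of Orbilia oligospora, a fungus also called Arthrobotrys oligospora that catches nematodes with adhesive networks. They were chosen by locus tag, as genes with a dynamin domain of the Pfam database of protein domains, out of 12901 loci in the expression table. The table gives a dynamin Pfam hit to 14 loci in all, and the other 7 are described after the members. Messenger RNA was measured by RNA-seq in hyphae of strain ATCC 24927 grown for 5 days at 28 °C on TYGA, a tryptone, yeast extract and glucose agar, with all samples labelled as differentiating aerial hyphae. There were 3 libraries labelled Mdv1 knockdown, 3 labelled Vps1 knockdown and 3 labelled WT. The study's own design text calls both altered strains deletion mutants, of Aomdv1 and Aovps1, so knockdown and deletion stand side by side in its description. No other allele or agent is named for any group. The sources used here do not say how the strains were made, whether each is a single clone, or whether each library came from its own culture, so p-values measure the spread between these libraries.

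Dynamin superfamily proteins are large GTPases that assemble on membranes and use GTP hydrolysis to constrict, cut or fuse them. In Saccharomyces cerevisiae, Dnm1 cuts mitochondria and peroxisomes after the adaptor Mdv1 and the outer membrane anchor Fis1 bring it there, while Vps1 acts in traffic between Golgi, endosomes and vacuole, in endocytosis and on peroxisomes. Fzo1 and Mgm1 work in the opposite direction, fusing the outer and the inner mitochondrial membranes. The study's title places AoVps1 with AoMdv1 in mitochondrial fission in this fungus, and the question addressed here is how transcripts of the whole gene family stood in the strains labelled for either gene.

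Of the 7 genes, 1 passed the test in any comparison: VPS1, the gene named in the Vps1 knockdown label, fell in the libraries with that label to 43.6% of its WT mean. Its mean in the libraries labelled Mdv1 knockdown was 50.6% of the WT mean, but that difference did not pass the test. Those 2 groups did not overlap, as in 22.1% of all tested loci. The genes DNM1, FZO1 and MGM1 of mitochondrial division and fusion and 3 further dynamin genes passed in no comparison. In the fit of log2(FPKM + 1) over all tested loci, 0 of the 7 members were called between the libraries labelled Mdv1 knockdown and WT, where 9.84% of all tested loci were called. Between the libraries labelled Vps1 knockdown and WT, 1 member was called, a fall, against 13.8% of all tested loci. Between the libraries labelled Vps1 knockdown and those labelled Mdv1 knockdown, 0 members and 0% of tested loci were called at the adjusted threshold. At an unadjusted p under 0.05, 978 loci and 0 members differed in that last comparison.

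Expression is given as FPKM, fragments scaled to gene length and library size by the authors, so levels of different genes can be set side by side. Loci were tested where FPKM reached 1 in at least 3 of the 9 libraries, which kept 10318 loci. All 7 members passed, and each had an FPKM of 1 or more in 9 of 9 libraries, so that filter did not choose among them. Differences were tested with limma-trend, two-sided, with Benjamini-Hochberg adjustment over the 10318 loci and a threshold of 0.05. Both comparisons with WT use the same 3 WT libraries, so their values stand side by side and are not independent of each other. Depth estimated from the step size of low FPKM values was 15900000 to 19300000 fragments per library. Across tested loci, replicate 3 of WT correlated at 0.896 to 0.906 with the rest of its group and replicate 3 labelled Mdv1 knockdown at 0.863 to 0.881, against 0.961 to 0.991 among all other libraries of a group. The hyphal marker HEX1, the core protein of the Woronin bodies that plug hyphal pores, averaged 6317, 9850 and 7450 FPKM in the libraries labelled Mdv1 knockdown, labelled Vps1 knockdown and WT. Of 14 hyphal marker genes, 1 rose and 0 fell in the libraries labelled Mdv1 knockdown against WT, and 2 rose and 0 fell in those labelled Vps1 knockdown. These were 7.14% and 14.3% of the list, beside 9.84% and 13.8% of all tested loci. The actin gene AOL_s00215g555, at means of 2139, 2381 and 948.2 FPKM in the same groups, rose in both (limma adjusted p = 0.00903 and 0.00411). The first of these calls was lost when only those 2 groups were fitted (limma adjusted p = 0.0775). The chitin synthase gene AOL_s00079g31 rose in the libraries labelled Vps1 knockdown (50.8 FPKM, against 20.7 FPKM in WT, limma adjusted p = 0.0417). That call was lost after median-ratio and quantile scaling (limma adjusted p = 0.0852 and 0.0737). With 1 library of these 2 groups left out, it held only without WT replicate 3 (limma adjusted p = 0.031, otherwise between 0.0746 and 0.1645). The other chitin synthase genes of the list were not called there and went both ways. AOL_s00075g153 had a log2 fold change of 1.71. Those below 0 were AOL_s00210g143 (-1.21), AOL_s00075g119 (-0.86), AOL_s00210g37 (-0.84), AOL_s00210g38 (-0.39) and AOL_s00078g76 (-0.21). Summed over the 14 genes, FPKM ran between 14600 and 19280, between 20450 and 21250, and between 14590 and 20500 in the same groups. Summed over 12 conidiation marker genes, it ran between 130.4 and 328.1, between 257.9 and 368.1, and between 1662 and 2058. Most of the WT sum came from the hydrophobin AOL_s00006g570, a spore and aerial hypha coat protein, at means of 1.03, 0.17 and 1677 FPKM. It was the only gene of the list that fell. The median log2 fold changes of the 12 genes against WT were 0.27 and 0.67, beside 0.08 and 0.30 for all tested loci. Homologues of abaA, wetA, veA, velB and vosA in this list were not called in either comparison with WT. A con-13 homologue, AOL_s00007g374, stayed at or below a mean of 1.45 FPKM in all 3 groups. Another, AOL_s00081g178, averaged 7.15, 3.07 and 1.39 FPKM in the same groups and was not called. Its highest value was 16.34 FPKM, in replicate 3 labelled Mdv1 knockdown. The fluG homologue AOL_s00043g361, at means of 16.43, 26.55 and 3.72 FPKM, rose in both comparisons with WT (limma adjusted p = 0.00693 and 0.00127). In the 12 marker genes, 1 rose and 1 fell in the libraries labelled Mdv1 knockdown against WT, and 2 rose and 1 fell in those labelled Vps1 knockdown. As shares of the list, both exceeded the 9.84% and 13.8% of all tested loci. The other rise was the trehalase gene AOL_s00043g154 (limma adjusted p = 0.0492). Its call held with only 2 groups fitted (0.0213) and without replicate 2 labelled Vps1 knockdown (0.0463). It also held without WT replicate 3, alone (0.0325) or together with replicate 3 labelled Mdv1 knockdown (0.00596). Every other alternative lost it, with limma adjusted p between 0.0533 and 0.1797. Whether the state of the hyphae plays a part in the values below was not tested, and in bulk RNA fewer cells of a type and less RNA per cell cannot be told apart.

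The adaptor gene named in the other label, MDV1 (AOL_s00097g206), did not separate the libraries labelled for it. It had 126.95, 117.84 and 82.46 FPKM in the libraries labelled Mdv1 knockdown, 116.85, 148.53 and 104.71 in those labelled Vps1 knockdown, and 133.24, 116.38 and 113.93 in WT. The groups overlapped, and the log2 fold changes against WT were -0.17 in the libraries labelled Mdv1 knockdown and 0.01 in those labelled Vps1 knockdown, with limma adjusted p = 0.768 and 0.98. The libraries are therefore named by their labels throughout.

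VPS1 (AOL_s00007g394) lies on scaffold NW_011645564.1, 1420575 to 1423280, plus strand, and carries the annotation of a dynamin central region with a Swiss-Prot hit to Vps1 of Schizosaccharomyces pombe. It had 41.24, 55.05 and 35.74 FPKM in the libraries labelled Mdv1 knockdown, 44.34, 22.55 and 46.92 FPKM in those labelled Vps1 knockdown, and 105.38, 72.7 and 83.09 FPKM in WT. Every library of either labelled group lay below every WT library. Groups did not overlap in 22.1% of all tested loci between Mdv1 knockdown and WT, and in 46.0% between Vps1 knockdown and WT. The lowest VPS1 value of all 9 was in replicate 2 labelled Vps1 knockdown. The transcript thus remained measurable in the libraries labelled for its own knockdown, at an estimated 1150 fragments in the lowest library, with gene span taken as length. The group means were 44.01 ± 9.95 FPKM in the libraries labelled Mdv1 knockdown, 37.94 ± 13.39 FPKM in those labelled Vps1 knockdown and 87.06 ± 16.70 FPKM in WT (SD, n = 3 each).

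Against WT, VPS1 fell in the libraries labelled Vps1 knockdown, with a log2 fold change of -1.23 (95% interval -2.0 to -0.46, SE 0.35, limma adjusted p = 0.0421). The median log2 fold change of all tested loci in that comparison was 0.30, so relative to that median VPS1 stood at -1.53. In the libraries labelled Mdv1 knockdown its log2 fold change against WT was -0.97 (95% interval -1.74 to -0.20, limma adjusted p = 0.117), and -1.05 relative to the median of 0.08. Taken alone, each contrast of 3 against 3 libraries gave an exact two-sided permutation p of 0.1, the smallest such a design allows. Between the libraries labelled Vps1 knockdown and those labelled Mdv1 knockdown the VPS1 groups overlapped, with a log2 fold change of -0.26 whose 95% interval ran between -1.03 and 0.52 (limma adjusted p = 0.79).

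The direction of VPS1 in the libraries labelled Vps1 knockdown was the same under every alternative run, but its side of the threshold was not. Without replicate 2 of that group, the library with the lowest VPS1 value, the log2 fold change was -0.90 and the limma adjusted p was 0.160. The call was also lost without WT replicate 1 (adjusted p = 0.124), without WT replicate 2 (0.0846), without replicate 1 labelled Vps1 knockdown (0.0905) and without replicate 3 labelled Vps1 knockdown (0.0786), and it held without WT replicate 3 (0.0497).

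**Figure D1:**
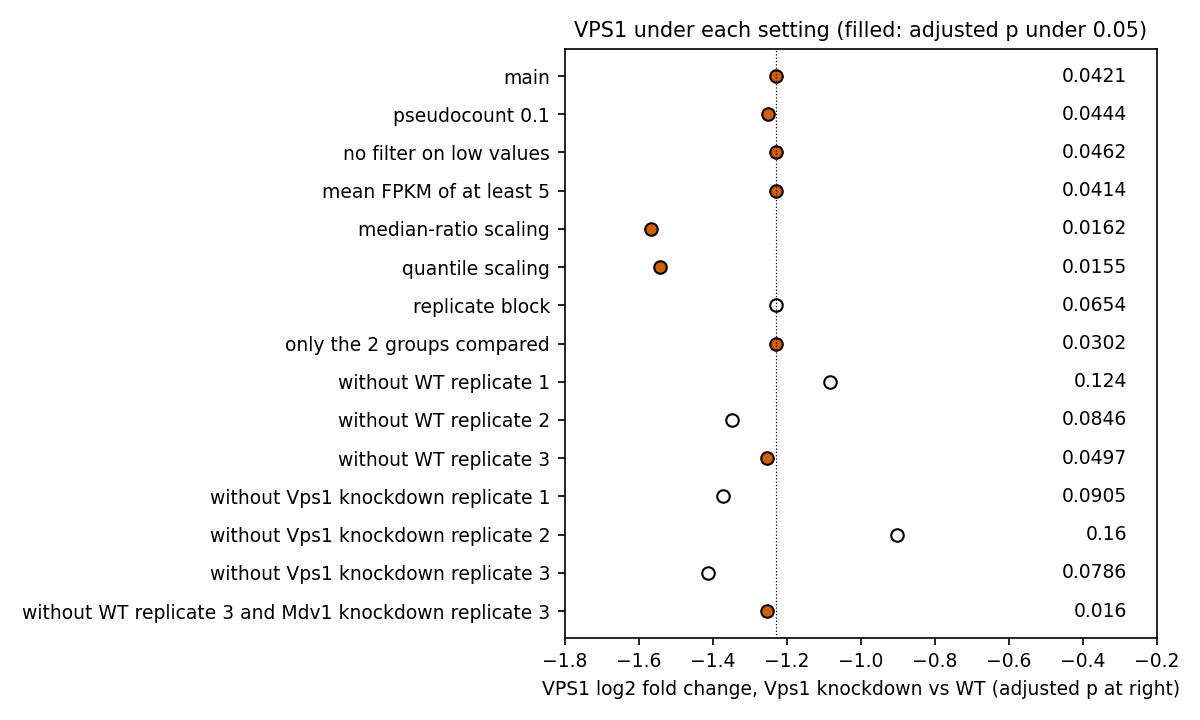
Log2 fold change of VPS1 between the libraries labelled Vps1 knockdown and WT (x axis) under the reported fit and each alternative (rows), with the adjusted p at the right and filled points where it is under 0.05. All 15 points lie below 0, between -1.57 and -0.90, while leaving out any single WT or Vps1-labelled library other than WT replicate 3 moves the adjusted p above the threshold.

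DNM1 (AOL_s00078g290; NW_011645635.1, 922184 to 925117, plus strand), whose Swiss-Prot hit is the mitochondrial division dynamin of Saccharomyces cerevisiae, did not pass the test in any comparison. It had 66.11, 44.26 and 44.02 FPKM in the libraries labelled Mdv1 knockdown, 58.15, 80.99 and 56.27 FPKM in those labelled Vps1 knockdown, and 60.04, 54.24 and 52.52 FPKM in WT. The groups overlapped, and the highest value was in replicate 2 labelled Vps1 knockdown, the library with the lowest VPS1. Its log2 fold change against WT was -0.13 in the libraries labelled Mdv1 knockdown (95% interval -0.77 to 0.50, limma adjusted p = 0.831). In those labelled Vps1 knockdown it was 0.21 (95% interval -0.42 to 0.84, limma adjusted p = 0.659), and -0.13 and -0.06 after median-ratio and quantile scaling of the libraries. Both intervals leave out a halving or a doubling, which would be -1 and 1 on this scale.

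Set within each library, VPS1 made up 38.4, 55.4 and 44.8% of the summed VPS1 and DNM1 FPKM in the libraries labelled Mdv1 knockdown, 43.3, 21.8 and 45.5% in those labelled Vps1 knockdown, and 63.7, 57.3 and 61.3% in WT. VPS1 was the more abundant of the pair in 3 of 3 WT libraries, in 1 of 3 libraries labelled Mdv1 knockdown and in 0 of 3 labelled Vps1 knockdown. The mean shares were 46.2% ± 8.59, 36.8% ± 13.1 and 60.7% ± 3.25 (SD, n = 3 each) in the same groups. Because this share is formed inside a library, scaling the whole library up or down does not move it.

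**Figure D2:**
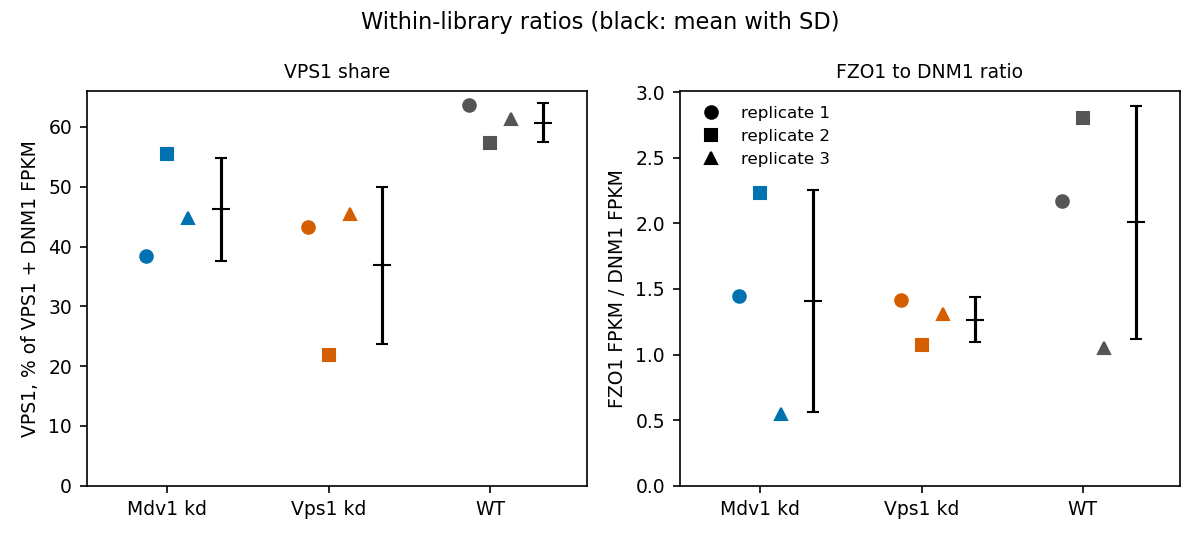
Left, VPS1 as a percentage of VPS1 plus DNM1 FPKM in each library. Right, the FZO1 to DNM1 FPKM ratio in each library. Points are libraries and black bars are group means with SD. All WT shares lie at or above 57.3%, above the 6 other libraries, while the FZO1 to DNM1 ratios overlap between groups and are lowest, within their groups, in replicate 3 labelled Mdv1 knockdown (0.546) and in WT replicate 3 (1.05).

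FZO1 (AOL_s00054g413; NW_011645611.1, 1327942 to 1330681, plus strand), which in yeast fuses outer mitochondrial membranes, had the highest group mean of the 7 genes in all 3 groups and the widest spread. It had 95.83, 98.79 and 24.03 FPKM in the libraries labelled Mdv1 knockdown, 82.39, 87.08 and 73.67 FPKM in those labelled Vps1 knockdown, and 130.31, 152.01 and 55.03 FPKM in WT. The low values were in replicate 3 labelled Mdv1 knockdown and WT replicate 3, the 2 libraries that correlated least with the rest of their groups, and the groups overlapped. The pooled SD of FZO1 within groups was 0.80 log2 units, wider than in 84.7% of tested loci. The log2 fold changes against WT were -0.74 in the libraries labelled Mdv1 knockdown (95% interval -1.97 to 0.49, limma adjusted p = 0.488) and -0.35 in those labelled Vps1 knockdown (95% interval -1.57 to 0.88, limma adjusted p = 0.708). Without those 2 replicates together, an alternative added after the values were seen, FZO1 fell in the libraries labelled Vps1 knockdown against WT (log2 fold change -0.79, limma adjusted p = 0.00984) in a fit that called 43.9% of all tested loci. In the libraries labelled Mdv1 knockdown it did not pass in that fit (-0.53, limma adjusted p = 0.0935), where 26.9% of tested loci were called. Leaving out single libraries moved the log2 fold change of FZO1 widely without a call. In the libraries labelled Mdv1 knockdown it was -0.08 without replicate 3 of that group and -1.19 without WT replicate 3, and in those labelled Vps1 knockdown it was -0.07 without WT replicate 2, -0.18 without WT replicate 1 and -0.79 without WT replicate 3 (limma adjusted p between 0.196 and 0.968).

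MGM1 (AOL_s00215g191; NW_011645772.1, 633610 to 636519, plus strand), the counterpart of the dynamin that fuses inner mitochondrial membranes and shapes cristae in yeast, was the steadiest member. It had 51.23, 55.01 and 38.92 FPKM in the libraries labelled Mdv1 knockdown, 46.68, 54.63 and 46.67 FPKM in those labelled Vps1 knockdown, and 48.06, 42.97 and 40.05 FPKM in WT. The highest library was 1.41 times the lowest over all 9, the groups overlapped, and the pooled SD within groups was 0.18 log2 units, smaller than in all but 2.99% of tested loci. Its log2 fold changes against WT were 0.13 in the libraries labelled Mdv1 knockdown (95% interval -0.45 to 0.72, limma adjusted p = 0.817) and 0.17 in those labelled Vps1 knockdown (95% interval -0.41 to 0.76, limma adjusted p = 0.695). After median-ratio scaling both were below 0, at -0.02 and -0.17. The ratio of DNM1 to MGM1, a division gene over a fusion gene, was 1.08 ± 0.248 in the libraries labelled Mdv1 knockdown, 1.31 ± 0.150 in those labelled Vps1 knockdown and 1.27 ± 0.0327 in WT (SD, n = 3 each), which overlapped.

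AOL_s00043g720 (NW_011645600.1, 2441700 to 2444194, minus strand) has a dynamin family domain and a Swiss-Prot hit to Schizosaccharomyces pombe Vps1, while its KEGG entry names a subunit of the Golgi tether COG. Its role in this fungus is not given in the table. It had 37.34, 24.27 and 24.59 FPKM in the libraries labelled Mdv1 knockdown, 35.7, 42.51 and 35.81 FPKM in those labelled Vps1 knockdown, and 50.35, 42.87 and 40.2 FPKM in WT. The libraries labelled Mdv1 knockdown all lay below WT, as in VPS1, whereas those labelled Vps1 knockdown overlapped both other groups. The mean in the libraries labelled Mdv1 knockdown was 64.6% of the WT mean, with a log2 fold change of -0.63 (95% interval -1.26 to -0.01). The unadjusted p of 0.0484 became a limma adjusted p of 0.215. In the libraries labelled Vps1 knockdown the log2 fold change against WT was -0.22 (95% interval -0.85 to 0.41, limma adjusted p = 0.638), and against the libraries labelled Mdv1 knockdown it was 0.42 (95% interval -0.21 to 1.04, limma adjusted p = 0.593), which was the lowest adjusted p among the 7 genes in that comparison. Of all tested loci, 22.1% had groups that did not overlap between the libraries labelled Mdv1 knockdown and WT, and 46.0% between those labelled Vps1 knockdown and WT, against 2 and 1 of the 7 genes.

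The other 2 members were lower in level, at 8.31 FPKM or below in every library. AOL_s00004g65 (NW_011645561.1, 217925 to 220771, plus strand) has a dynamin central region and a Swiss-Prot hit to yeast Vps1. It had 4.17, 4.01 and 2.32 FPKM in the libraries labelled Mdv1 knockdown, 4.89, 4.01 and 4.81 FPKM in those labelled Vps1 knockdown, and 2.77, 2.91 and 7.74 FPKM in WT. WT replicate 3 was the highest library and the groups overlapped. The log2 fold changes against WT were -0.19 in the libraries labelled Mdv1 knockdown (limma adjusted p = 0.815) and 0.14 in those labelled Vps1 knockdown (limma adjusted p = 0.834, and -0.13 after either scaling). The first was 0.20 without WT replicate 3 and 0.01 without replicate 3 labelled Mdv1 knockdown, and the other ran between -0.07 without WT replicate 1 and 0.53 without WT replicate 3, with no call.

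AOL_s00075g4 (NW_011645632.1, 19861 to 23097, minus strand) has a dynamin family domain and no Swiss-Prot hit, so its role is not known from the table. It had 4.92, 8.31 and 3.54 FPKM in the libraries labelled Mdv1 knockdown, 5.15, 4.52 and 6.23 FPKM in those labelled Vps1 knockdown, and 2.24, 1.94 and 7.55 FPKM in WT. WT replicates 1 and 2 were the lowest of the 9 libraries, and WT replicate 3 was the second highest. The log2 fold changes against WT were 0.54 in the libraries labelled Mdv1 knockdown (95% interval -0.46 to 1.54, limma adjusted p = 0.539) and 0.53 in those labelled Vps1 knockdown (95% interval -0.47 to 1.53, limma adjusted p = 0.459). Without WT replicate 3 and replicate 3 labelled Mdv1 knockdown, it rose in both comparisons, by 1.27 (limma adjusted p = 0.0118) and by 1.02 (limma adjusted p = 0.0132), in fits that called 26.9% and 43.9% of all tested loci. At these levels the estimated support was 105 to 378 fragments per library for AOL_s00004g65 and 112 to 459 for AOL_s00075g4.

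**Figure D3:**
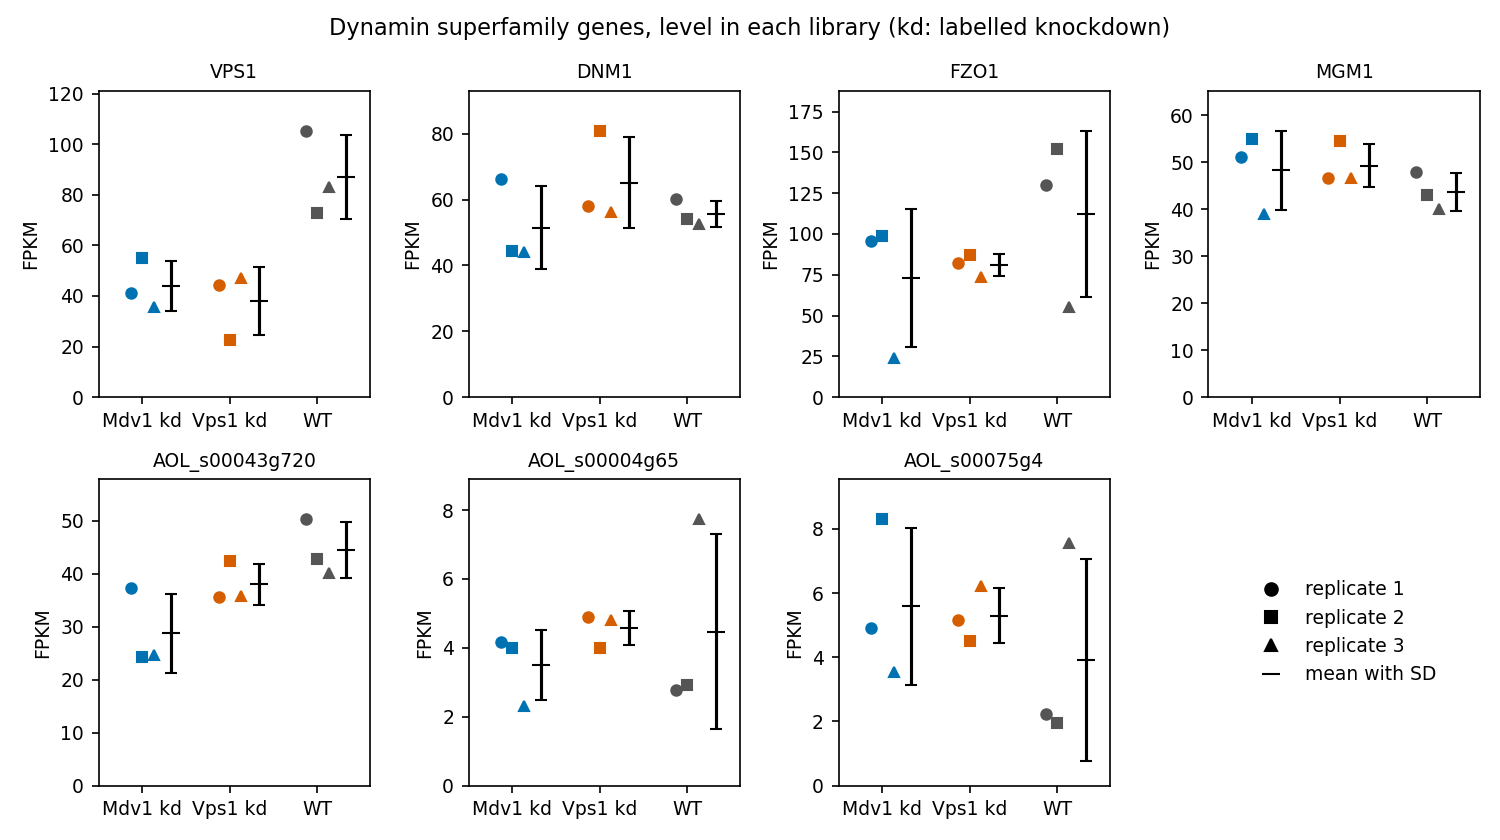
FPKM of each of the 7 dynamin superfamily genes (y axes, each starting at 0 with its own scale) in the libraries labelled Mdv1 knockdown (kd), labelled Vps1 knockdown and WT. Points are libraries, with the replicate number as the symbol, and black bars are group means with SD. VPS1 lies at 55.05 FPKM or below in both labelled groups and at 72.7 FPKM or above in WT, MGM1 stays between 38.92 and 55.01 FPKM, and FZO1 is lowest, within each group, in replicate 3.

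Ordered by mean FPKM, FZO1 came first in every group and the pair AOL_s00004g65 and AOL_s00075g4 last, overlapping each other and separate from the rest. In the libraries labelled Mdv1 knockdown the order of the other genes was DNM1, MGM1, VPS1 and AOL_s00043g720, and each neighbouring pair from FZO1 down to AOL_s00043g720 overlapped. In those labelled Vps1 knockdown it was DNM1, MGM1, AOL_s00043g720 and VPS1. There DNM1 overlapped FZO1 but not MGM1, MGM1 did not overlap AOL_s00043g720, and AOL_s00043g720 overlapped VPS1. In WT it was VPS1, DNM1, AOL_s00043g720 and MGM1, with VPS1 overlapping FZO1 but not DNM1, DNM1 separate from AOL_s00043g720, and AOL_s00043g720 overlapping MGM1. VPS1 thus took place 4 of 7 in the libraries labelled Mdv1 knockdown, place 5 in those labelled Vps1 knockdown and place 2 in WT. Summed over the 7 genes, FPKM was 254.6 ± 70.7 in the libraries labelled Mdv1 knockdown, 281.3 ± 13.4 in those labelled Vps1 knockdown and 351.7 ± 58.6 in WT, and VPS1 gave 17.8% ± 3.62, 13.7% ± 5.27 and 25.03% ± 4.83 of that sum (SD, n = 3 each).

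The median log2 fold change of the 7 genes against WT was -0.19 in the libraries labelled Mdv1 knockdown, where the median of all tested loci was 0.08, and 5 of the 7 values were below 0. In the libraries labelled Vps1 knockdown it was 0.14, where the median of all tested loci was 0.30, and 3 of the 7 values were below 0. After median-ratio and quantile scaling the member median in that comparison was -0.17 and -0.13, beside 0.00 and 0.08 for all tested loci. Between the libraries labelled Vps1 knockdown and those labelled Mdv1 knockdown the median was 0.33 for the members and 0.16 for all tested loci.

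**Figure D4:**
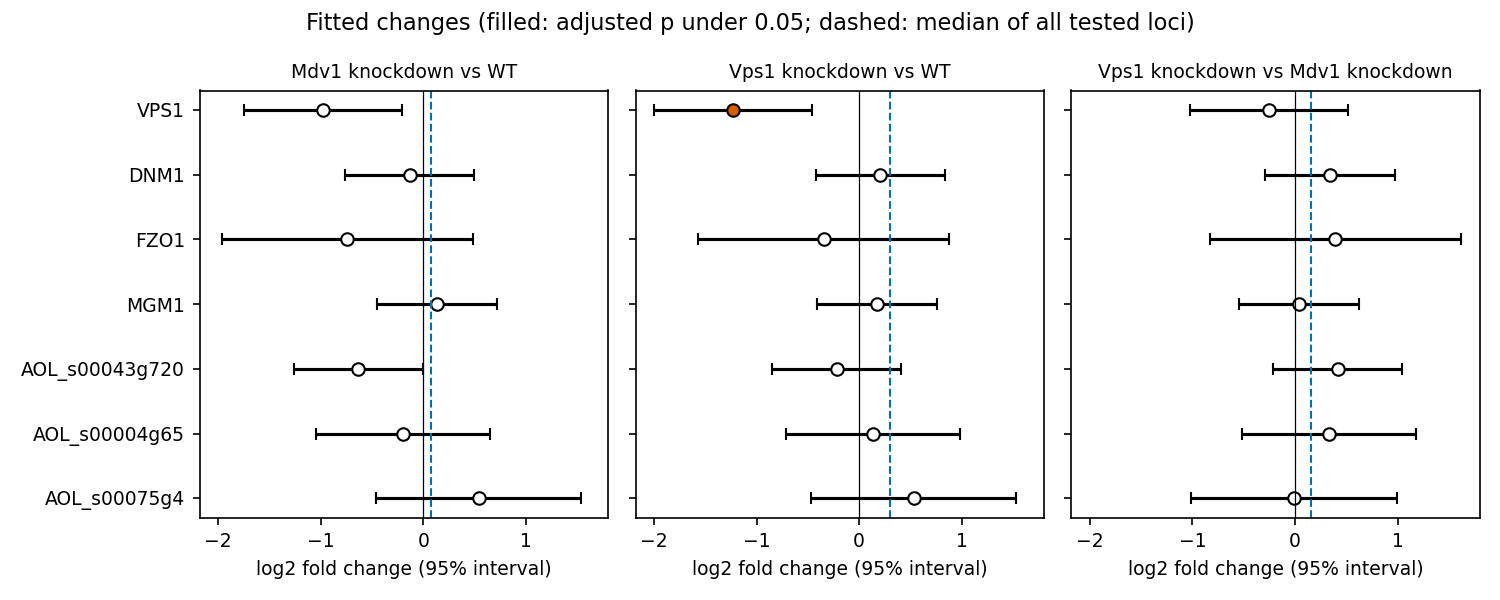
Log2 fold changes of the 7 genes (x axes) with 95% intervals in the 3 comparisons. The filled point marks an adjusted p under 0.05, and dashed lines mark the median of all tested loci. VPS1 in the libraries labelled Vps1 knockdown against WT, at -1.23, is the filled point, and FZO1 has the widest intervals.

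Of the other 7 loci with a dynamin Pfam hit, 6 were nearly silent. They did not reach the filter, with means between 0.003 and 0.661 FPKM over the 9 libraries, although AOL_s00080g223 reached 3.25 FPKM in WT replicate 3. The seventh, AOL_s00210g344, averaged 3.76 FPKM, a level near that of the 2 lowest members, and ran between 1.05 and 12.66 FPKM, again highest in WT replicate 3, and did not pass the test in any of the 3 comparisons (limma adjusted p = 0.435, 0.938 and 0.619).

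For each member the closest profiles among about 5220 tested loci with a Swiss-Prot hit were found by the root-mean-square difference of centred log2(FPKM + 1) values over the 9 libraries, as a description. VPS1 was nearest to an amino-acid permease (AOL_s00004g363, difference 0.30) and an ustYa-like oxidase (AOL_s00210g62, 0.31), the most distant best match of the 7. DNM1 was nearest to the mitochondrial ribosomal protein gene AOL_s00081g289 (0.12) and the beta tubulin gene AOL_s00076g640 (0.12). FZO1 was nearest to the TORC1 subunit gene AOL_s00079g187 (0.18) and a sce3-like RNA-binding protein gene (AOL_s00083g419, 0.18). MGM1 was nearest to the rhoA GTPase gene AOL_s00188g16 (0.08) and the mitochondrial ATP synthase alpha subunit gene AOL_s00078g239 (0.10). The nearest loci were the mlo3-like mRNA export gene AOL_s00215g771 for AOL_s00043g720 (0.11), a glycerol kinase gene (AOL_s00193g4) for AOL_s00004g65 (0.09) and a velvet-domain gene (AOL_s00043g589) for AOL_s00075g4 (0.15).

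The loci on either side of VPS1 did not pass the test. The left neighbour AOL_s00007g393, 1443 bp away, averaged 72.9 FPKM in the libraries labelled Mdv1 knockdown, 118.3 FPKM in those labelled Vps1 knockdown and 70.2 FPKM in WT, with log2 fold changes against WT of -0.05 and 0.76 (limma adjusted p = 0.958 and 0.204). The right neighbour, the mcm5-like replication gene AOL_s00007g395, 827 bp away, averaged 13.8, 26.4 and 23.9 FPKM in the same groups, with log2 fold changes of -0.72 and 0.18 (limma adjusted p = 0.213 and 0.741). Against WT, 9.84% (Mdv1 knockdown) and 13.8% (Vps1 knockdown) of all tested loci were called. Of the 14 flanking loci of the 7 members, 1 was called in any comparison. It is AOL_s00043g721, a locus with no annotation 2478 bp from AOL_s00043g720, which averaged 1.31 FPKM in the libraries labelled Vps1 knockdown and 11.8 FPKM in WT and fell by 2.40 on the log2 scale (limma adjusted p = 0.0188). It was not called without replicate 1 labelled Vps1 knockdown (0.0586) or without replicate 3 labelled Vps1 knockdown (0.0908).

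In the reported fit, genes of proteins that work with these GTPases were called at shares near those of all tested loci. Over 5 lists holding 56 tested genes, 4 rose and 0 fell in the libraries labelled Mdv1 knockdown against WT, 7.14% beside 9.84% of all tested loci. In those labelled Vps1 knockdown 6 rose and 0 fell, 10.7% beside 13.8% of all tested loci, and 0 were called between the libraries labelled Vps1 knockdown and those labelled Mdv1 knockdown. Without WT replicate 3, 9 rose and 2 fell in the libraries labelled Vps1 knockdown against WT. That fit called 21.9% of all tested loci, and the falls were 1 gene each of mitochondrial shape and peroxisome division. In the reported fit, the median log2 fold change of the 56 genes against WT was 0.42 in the libraries labelled Mdv1 knockdown and 0.48 in those labelled Vps1 knockdown, against 0.08 and 0.30 for all tested loci.

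Among 4 genes of the mitochondrial division machinery, MTP18 (AOL_s00079g30), an inner membrane protein whose human counterpart acts in division, rose in both comparisons with WT. It had 93.28, 65.03 and 55.76 FPKM in the libraries labelled Mdv1 knockdown, 91.02, 88.68 and 87.15 FPKM in those labelled Vps1 knockdown, and 20.83, 12.74 and 28.79 FPKM in WT. Neither labelled group overlapped WT, as in 22.1% (Mdv1 knockdown) and 46.0% (Vps1 knockdown) of all tested loci. The log2 fold changes against WT were 1.77 in the libraries labelled Mdv1 knockdown (limma adjusted p = 0.00841, and 0.0532 when only these 2 groups were fitted) and 2.12 in those labelled Vps1 knockdown (limma adjusted p = 0.00297). FIS1 (AOL_s00109g118), the outer membrane anchor, averaged 137.0 FPKM in the libraries labelled Mdv1 knockdown, 124.1 FPKM in those labelled Vps1 knockdown and 103.3 FPKM in WT, and neither difference from WT passed (limma adjusted p = 0.505 and 0.569).

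None of the 8 genes for partners of fusion and for processing of Mgm1 passed in either comparison with WT. Of all tested loci, 9.84% and 13.8% were called there. The median log2 fold changes of the 8 were 0.53 in the libraries labelled Mdv1 knockdown and 0.74 in those labelled Vps1 knockdown. Those of all tested loci were 0.08 and 0.30. The rhomboid protease gene PCP1 (AOL_s00173g386), whose yeast product cleaves Mgm1, averaged 63.1, 63.1 and 32.3 FPKM in the libraries labelled Mdv1 knockdown, labelled Vps1 knockdown and WT (limma adjusted p = 0.098 and 0.0701 against WT). UGO1 (AOL_s00083g148), which in yeast links Fzo1 to Mgm1, averaged 47.8, 44.7 and 34.5 FPKM in the same groups (limma adjusted p = 0.367 and 0.388). None of the 11 genes for mitochondrial shape, subunits of the ERMES contact sites and of the MICOS cristae complex among them, was called, with medians of 0.17 and 0.09. None of the 5 peroxisome division genes was called, with medians of 0.08 and 0.23. These counts depended on the fit. With only the groups labelled Vps1 knockdown and WT fitted, 3 of the 8 fusion genes rose. In that fit 1 shape gene and 1 peroxisome division gene also rose, and 24.1% of all tested loci were called.

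The called partner genes other than MTP18 belonged to the 28 genes of coats and endosomal sorting, where 3 rose in the libraries labelled Mdv1 knockdown and 5 rose in those labelled Vps1 knockdown, 10.7% and 17.9% of the list beside 9.84% and 13.8% of all tested loci. SLA2 (AOL_s00079g186), an endocytic coat protein that binds actin, had 105.5, 152.14 and 85.69 FPKM in the libraries labelled Mdv1 knockdown, 118.08, 105.53 and 118.86 FPKM in those labelled Vps1 knockdown, and 48.43, 36.97 and 33.28 FPKM in WT. All 6 labelled libraries were above all 3 WT libraries, with log2 fold changes of 1.49 (limma adjusted p = 0.00945) and 1.52 (limma adjusted p = 0.00758). Groups did not overlap in 22.1% of all tested loci between Mdv1 knockdown and WT, and in 46.0% between Vps1 knockdown and WT.

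Some of these genes encode subunits of the retromer, a coat that returns cargo proteins out of endosomes, and they are grouped here after their values were seen. VPS26 (AOL_s00076g674), of its cargo-binding core, averaged 140.1 FPKM in the libraries labelled Mdv1 knockdown, 134.2 FPKM in those labelled Vps1 knockdown and 55.7 FPKM in WT, with log2 fold changes against WT of 1.31 and 1.26 (limma adjusted p = 0.0152 and 0.0156). VPS29 (AOL_s00188g89) averaged 200.7, 139.8 and 63.2 FPKM in the same groups, with log2 fold changes of 1.59 and 1.14 (limma adjusted p = 0.00917 and 0.0368). VPS35 (AOL_s00004g286), the third core subunit, averaged 36.6, 34.8 and 16.0 FPKM and did not pass, at 1.06 in both comparisons (limma adjusted p = 0.119 and 0.0903). The sorting nexin gene VPS5 (AOL_s00083g207) rose in the libraries labelled Vps1 knockdown, with a log2 fold change of 1.08 (91.0 FPKM, against 43.6 FPKM in WT, limma adjusted p = 0.0415) but did not pass in those labelled Mdv1 knockdown (limma adjusted p = 0.0636), and VPS17 (AOL_s00078g478) was not called in either comparison. An AP-1 mu subunit gene, AOL_s00075g108, of the clathrin adaptor of the Golgi and endosomes, averaged 17.5 FPKM in the libraries labelled Vps1 knockdown and 7.68 FPKM in WT and rose by 1.09 (limma adjusted p = 0.0493). It is called the AP-1 mu gene below. Another AP-1 mu gene, AOL_s00054g156, averaged 75.8 and 43.1 FPKM there and was not called (limma adjusted p = 0.0855). Genes of the other AP-1 subunits were not called either (limma adjusted p between 0.158 and 0.426).

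These calls differed in how far they held. When only 2 groups were fitted, none of the 4 partner genes called in the libraries labelled Mdv1 knockdown passed, with limma adjusted p between 0.0532 and 0.0813. Of these 4, VPS26 was also not called without WT replicate 2 (0.0655) or without replicate 1 labelled Mdv1 knockdown (0.0508). In those labelled Vps1 knockdown, VPS29, VPS5 and the AP-1 mu gene were not called after median-ratio scaling (limma adjusted p = 0.136, 0.185 and 0.128), VPS5 and the AP-1 mu gene were not called after quantile scaling (0.0993 and 0.104), and the AP-1 mu gene was not called with no filter on low values (0.0623). VPS26 was not called without WT replicate 2, without replicate 1 labelled Vps1 knockdown or without replicate 3 labelled Vps1 knockdown (0.068, 0.0808 and 0.0885). VPS29, VPS5 and the AP-1 mu gene lost the call there without WT replicate 2 or without any single library labelled Vps1 knockdown, with limma adjusted p between 0.102 and 0.168. VPS29 and the AP-1 mu gene lost it also without WT replicate 1 (0.074 and 0.0826), and VPS5 and the AP-1 mu gene without WT replicate 3 (0.0628 and 0.0501). MTP18 and SLA2 in the libraries labelled Vps1 knockdown stayed called under every alternative run.

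**Figure D5:**
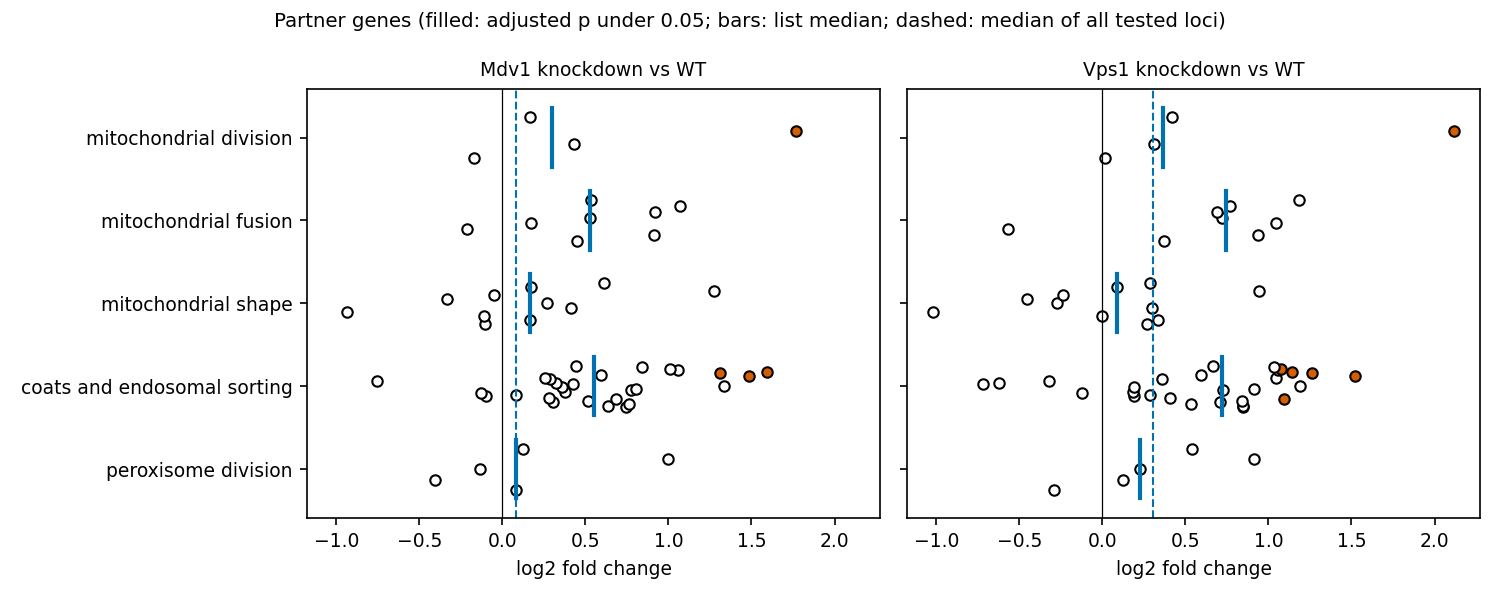
Log2 fold changes against WT (x axes) of the 56 partner genes by list, left for the libraries labelled Mdv1 knockdown and right for those labelled Vps1 knockdown. Points are genes, filled where the adjusted p is under 0.05, vertical bars are list medians and dashed lines the median of all tested loci. The rightmost filled points are MTP18, at 1.77 and 2.12, and the other filled points are coat and endosomal sorting genes.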

How the data were processed

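The authors deposited 1 table of FPKM values for 9 libraries, rounded to 2 decimals, with annotation columns. Aligner, counting program and fragment counts were not given in the sources used here. Per the labels' protocols, total RNA went into standard Illumina libraries. Coordinates are those of the table, equal to the RefSeq assembly of this species, and 11144 loci carry a locus tag. No pair of libraries was identical (0 pairs), and 0 columns belonged to other samples.

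Values were analysed as log2(FPKM + 1), since FPKM values are not counts. Because of the added 1, fold changes of low genes are understated. The loci that reached FPKM 1 in 3 libraries or more were fitted together over the 3 groups by limma-trend (limma 3.58.1, R 4.3.3) without a replicate term, and p-values were adjusted over all tested loci. The fit was tested on simulated data with known changes. Depth was estimated from FPKM steps of loci under 700 bp, searched between 10000000 and 25000000 fragments. With these depths, 67.5 to 70.4% of those values fell within 0.1 of whole fragment numbers, too few to recover counts, and gene spans with introns served as lengths.

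The named genes are all members, MDV1, the 2 closest profiles and nearest flanking loci of each member (those not named were left out for length), FIS1, MTP18 and called partner genes. Partner genes named without a call (PCP1, UGO1, VPS35, VPS17, AOL_s00054g156), the marker genes and AOL_s00080g223 were chosen after their values were seen, and 5 called genes of the coat list are named where the rule allows 4. Members and lists were chosen with earlier results of these data known. The alternatives tried were no filter, a minimum mean FPKM of 5, a pseudocount of 0.1, median-ratio and quantile scaling, a replicate block, a fit of 2 groups, and leaving out libraries.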

Additional observations from a re-analysis of the deposited data

How the results depend on the processing

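Relative to the reported fit, the called members, partner genes, marker genes and AOL_s00043g721 kept their direction under every alternative run, while the balance of all called loci shifted. Rising loci were 57.1% of those called in the libraries labelled Mdv1 knockdown against WT (580 rose, 435 fell), and 48.7% after median-ratio scaling (507 and 535). In those labelled Vps1 knockdown they were 62.3% (888 and 538), 42.6% after median-ratio scaling (552 and 745) and 48.5% after quantile scaling (663 and 704). The median log2 fold change of all loci in that comparison was 0.30, 0.00 and 0.08 under the 3 scalings.

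With only 2 groups fitted, 508 loci (4.92%) and 0 partner genes were called for Mdv1 knockdown against WT. For Vps1 knockdown against WT, 2483 loci (24.1%) and 18 partner genes were called. Median-ratio scaling left 3 partner genes called for Vps1 knockdown against WT, beside 12.6% of all tested loci. The number of loci called for Vps1 against Mdv1 knockdown was 1 with no filter and 1 with median-ratio scaling. Leaving out 1 library at a time gave 631 (without WT replicate 2) to 1530 (without WT replicate 3) loci and 3 to 7 partner genes for Mdv1 knockdown against WT, the 7 without WT replicate 3 and without replicate 2 or replicate 3 labelled Mdv1 knockdown. For Vps1 knockdown against WT it gave 622 (without replicate 3 labelled Vps1 knockdown) to 2262 loci (without WT replicate 3), 701 without WT replicate 2, 675 without replicate 1 and 697 without replicate 2 labelled Vps1 knockdown. There it also gave 2 to 11 partner genes (the 11 being 9 rises and 2 falls) and 0 to 1 dynamin genes, beside 6.03% to 21.9% of all tested loci. The VPS1 log2 fold change there was -1.41 to -0.90. For Vps1 against Mdv1 knockdown, leaving out 1 library gave 0 to 24 loci, the 24 without replicate 1 labelled Mdv1 knockdown. Without WT replicate 3 and replicate 3 labelled Mdv1 knockdown together, chosen after seeing the data, 2771, 4531 and 55 loci were called in the 3 comparisons, with 20 partner genes (18 rose, 2 fell) and 28 (25 rose, 3 fell) against WT. That fit called 1 dynamin gene for Mdv1 knockdown and 3 for Vps1 knockdown against WT, beside 26.9% and 43.9% of all tested loci. The cause of these shifts was not tested.

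Same-numbered libraries correlated at -0.283 to 0.387 in their deviations from group means, beside -0.275 to 0.2785 for libraries of different numbers. These ranges do not show that the numbers pair libraries, and with 3 libraries per group they cannot exclude it. With the replicate number as a block, VPS1 kept its log2 fold change of -1.23 for Vps1 knockdown against WT at an adjusted p of 0.0654, so that 0 dynamin genes were called. The block also left VPS5 and the AP-1 mu gene uncalled in that comparison (0.0676 and 0.077). AOL_s00004g65 and AOL_s00075g4 have no value at a mean FPKM of at least 5.

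The 5 higher members rested on an estimated 975 fragments or more per library and the 2 lower ones on as few as 105. FPKM values carry no counts, so no counting interval is given, and 3 libraries per group limit which changes can pass.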
